A study of Mus musculus with 6 samples.

Results

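Transcripts of 10 immediate early genes, Fos, Fosb, Jun, Junb, Egr1, Egr2, Egr3, Atf3, Ier2 and Nr4a1, were measured in bulk RNA of dorsal skin, with a single library from each of 3 wild-type (WT) and 3 tight skin (TSK) animals. The genes were taken by name, as a sign of handling stress, out of 55291 genes in the deposited table. Both groups were on the C57BL/6 strain, aged 6 to 8 weeks by the labels and littermates by the methods of the study. TSK mice bear an intragenic duplication in Fbn1, which encodes fibrillin 1, and the line was maintained by backcrossing. The labels give the animals as female and the methods as male. Ddx3y, which is Y-linked, was at 56.7 to 72.8 CPM (counts scaled to 1000000 per library) and Xist at 2.57 to 4.58 CPM over the 6 libraries. Kdm5d (31.4 to 46.2 CPM), Uty (27.4 to 36.5 CPM) and Eif2s3y (27.0 to 39.0 CPM) are also Y-linked. Y-linked transcripts in all 6 libraries go with the methods and against the female label. All mice were shaved before the skin was taken. The interval from death to RNA isolation is not given in the sources used here, and skin without shaving was not analysed here.

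Immediate early genes are silent or weakly transcribed at rest and are switched on by growth factors, wounding, stretch, calcium or stress without the need for new protein. MAP kinases act on serum response factor and its ETS partners, which bind the CArG box, and on CREB-type factors, which bind the cyclic AMP response element (CRE). The products are mostly transcription factors: FOS and JUN proteins pair to form AP-1, EGR proteins are zinc finger activators, and NR4A1 is an orphan nuclear receptor. Their mRNAs are short-lived, so that levels in a tissue can change while it is being excised, and working skeletal muscle induces several of them, Nr4a1 among others.

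Library totals were 17561453 to 19219814 counts, and each of the 10 genes had 52 to 3479.6 counts in a library. All 10 passed the low-count filter. Fbn1 was at 262 to 289 deposited CPM in WT and 1538 to 2284 CPM in TSK (log2 fold change 2.54, SE 0.22, edgeR adjusted p = 0.00327), and the groups did not overlap. Makeup differed between libraries. Adult skeletal muscle genes, a list of 16, took 17.0%, 24.8% and 23.5% of the counts in WT 1, 2 and 3 and 16.9%, 15.9% and 14.7% in TSK 1, 2 and 3. Values below are CPM after TMM scaling, with factors of 0.823 to 1.03 in WT and 1.06 to 1.13 in TSK. TMM rescales the library totals and does not take out differences in tissue makeup such as the muscle share. In bulk skin, a lower share of a cell type and less RNA per cell of that type cannot be told apart.

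Compared per kilobase of exon, Nr4a1 and Jun were the most abundant of the 10 genes. In WT skin the order of the means was Nr4a1 (46.2 ± 22.5 CPM per kb, SD, n = 3), Jun (33.8 ± 3.56), Junb (21.5 ± 4.37), Fos (12.8 ± 4.42), Egr1 (8.39 ± 3.24), Ier2 (7.83 ± 1.505), Atf3 (6.62 ± 2.03), Egr3 (3.30 ± 0.799), Fosb (2.73 ± 2.36) and Egr2 (2.70 ± 1.16). Neighbors in this order had overlapping ranges over libraries, except Jun with Junb and Atf3 with Egr3. In TSK skin Jun was first (30.1 ± 5.10), followed by Nr4a1 (23.5 ± 4.56), Junb (16.8 ± 4.09), Fos (9.74 ± 3.60) and Ier2 (9.53 ± 0.886). The lower levels in TSK were Egr1 (6.83 ± 1.70), Egr3 (5.56 ± 0.512), Egr2 (4.54 ± 0.964), Atf3 (3.78 ± 1.84) and Fosb (0.681 ± 0.341). Only Junb with Fos, Ier2 with Egr1 and Atf3 with Fosb did not overlap in TSK.

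**Figure D1:**
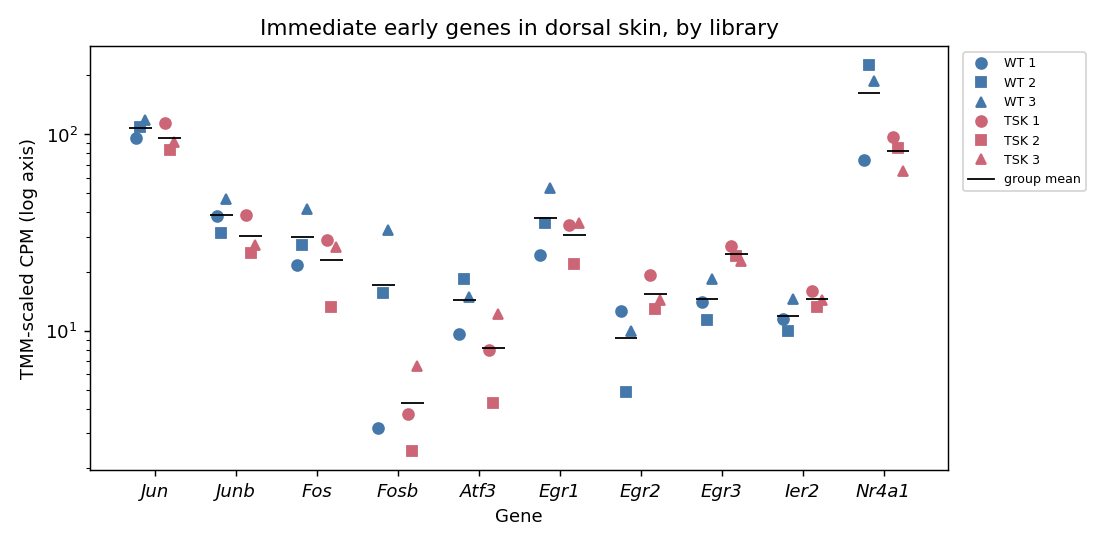
TMM-scaled CPM (log axis) of 10 immediate early genes, with 1 point per library (blue WT, red TSK; circle, square and triangle for replicates 1, 2 and 3) and black lines for group means. Egr2 and Egr3 have no overlap between the groups, and Fosb spans from 2.43 to 32.6 CPM.

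To ask whether the early genes differed between TSK and WT skin, they were read from edgeR's quasi-likelihood test over all 19971 genes kept by the filter. Of the 10 genes, 0 passed an adjusted p of 0.05, where 3.39% of all tested genes did (2.71% higher in TSK and 0.681% lower). At an unadjusted p below 0.05 there were 4 (Egr3, Fosb, Nr4a1 and Egr2), against 20% of all tested genes. Log2 fold changes (TSK minus WT) were negative for 7 genes and positive for 3, where 53.0% of all tested genes were negative, with a median of -0.33 over the 10 genes and -0.03 over all tested genes. Without WT 3 the median over the 10 genes was -0.08 and without TSK 2 it was -0.11. WT and TSK values were fully separate for 2 of the 10 genes, Egr2 and Egr3, both higher in TSK. For all tested genes this was so in 24.7%, and in 14.1% with TSK higher.

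**Figure D2:**
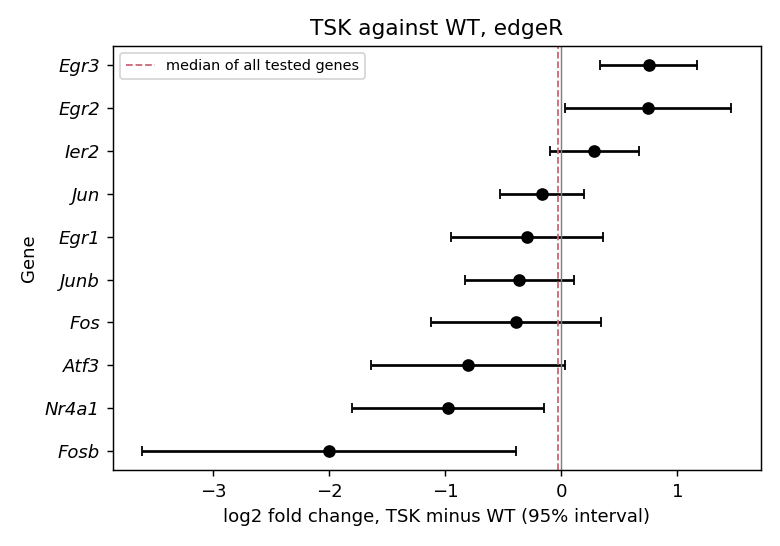
Log2 fold change (TSK minus WT) of each gene with its 95% interval from the edgeR fit, and the median of all tested genes as a dashed line. Intervals of Egr2 and Egr3 lie above 0 and those of Nr4a1 and Fosb below 0 before adjustment for multiple tests; 0 of 10 genes passed after it.

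Among the EGR genes, Egr3 and Egr2 had positive differences and Egr1 did not share them. Egr3 (chromosome 14, 70077203 to 70082614, plus strand), a zinc finger factor of T cells, nerve and muscle spindles, was at 14.02, 11.3 and 18.3 CPM in WT 1, 2 and 3 and at 27.0, 23.9 and 22.5 CPM in TSK 1, 2 and 3. Every TSK library was above every WT library. The log2 fold change was 0.75 (SE 0.18, 95% interval 0.34 to 1.17, adjusted p = 0.0643), which did not pass 0.05. With DESeq2, the tool of the study, it passed 0.05 (0.76, adjusted p = 0.0141, where 7.48% of genes passed). That value met neither limit of the study, a fold above 2.5 and an adjusted p below 0.01. Egr3 also passed 0.05 with library size only (1.02, adjusted p = 0.017), with limma-trend on the deposited CPM and without a low-count filter. Over all 19 alternatives its log2 fold change was 0.61 to 1.05 and its adjusted p 0.0141 to 0.37.

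Egr2 (chromosome 10, 67535475 to 67542188, plus strand), which drives myelination in Schwann cells, was at 12.6, 4.86 and 10.001 CPM in the WT libraries and at 19.1, 12.9 and 14.3 CPM in the TSK libraries. The groups did not overlap, but WT 1 and TSK 2 nearly touched, and WT 2 was the lowest by far. Its log2 fold change was 0.75 (SE 0.31, adjusted p = 0.233). Without WT 2 it was 0.45. The summed TMM-scaled level of a Schwann cell list was 204 to 300 CPM in WT and 291 to 485 CPM in TSK, which overlap. Of its genes 6 of 6 were above 0 in log2 fold change and 1 (Pmp22) passed 0.05, against 2.71% of all tested genes with TSK higher. The part of this list in the Egr2 values was not tested.

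Egr1 (chromosome 18, 34859823 to 34864984, plus strand), the most widely induced EGR gene, was at 24.3, 35.4 and 53.1 CPM in WT and 34.7, 21.8 and 35.3 CPM in TSK. WT 3 was highest and TSK 2 lowest, and the ranges overlapped. The log2 fold change of -0.30 (SE 0.29, 95% interval -0.95 to 0.36, adjusted p = 0.622) had no settled sign. It was 0.0528 without WT 3, -0.10 without TSK 2 and -0.51 without WT 1, and on the deposited CPM the group means were 33.7 ± 11.8 in WT and 33.7 ± 8.24 in TSK (SD, n = 3). Ier2 (chromosome 8, 84661331 to 84662854, minus strand), a small nuclear regulator, ran with Egr2 and Egr3 at 11.4, 9.91 and 14.4 CPM in WT and 15.9, 13.2 and 14.4 CPM in TSK. Its log2 fold change was 0.28 (SE 0.17, adjusted p = 0.395), with 0.18 without WT 2 and 0.45 without WT 3. The TMM-scaled values overlapped, while on the deposited CPM, which has no TMM scaling, 3 of the 10 genes were separate, Ier2 with Egr2 and Egr3. On that scale 31.6% of all tested genes were separate and 29.1% were so with TSK higher.

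Of the FOS and JUN genes among the 10, Fosb had the greatest difference and also the greatest spread. Fosb (chromosome 7, 19302696 to 19310051, minus strand) was at 3.17, 15.5 and 32.6 CPM in WT 1, 2 and 3, a 10.3-fold range within 1 genotype. In TSK it was at 3.73, 2.43 and 6.59 CPM. WT 1 lay within the TSK range, and WT 2 and WT 3 lay above it. The mean was 17.1 ± 14.8 CPM in WT and 4.25 ± 2.13 CPM in TSK (log2 fold change -1.999, SE 0.71, 95% interval -3.61 to -0.39, adjusted p = 0.162). Leaving out WT 1 gave -2.47 with an adjusted p of 0.026, and leaving out WT 3 gave -1.10 with 0.497. Without a low-count filter it also passed (adjusted p = 0.0418).

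Fos (chromosome 12, 85473890 to 85477273, plus strand), the partner of JUN in the classical AP-1 dimer, was at 21.5, 27.1 and 41.6 CPM in WT and 28.9, 13.2 and 26.5 CPM in TSK. The groups overlapped, with WT 3 above and TSK 2 below the rest (log2 fold change -0.39, SE 0.32, adjusted p = 0.546). Without WT 3 the Fos value was -0.07 and without TSK 2 it was -0.12, while without TSK 1 it was -0.60. Jun (chromosome 4, 95049034 to 95052222, minus strand) was steadier, at 96.0, 109 and 119 CPM in WT and 114, 82.8 and 91.1 CPM in TSK. Its log2 fold change of -0.17 (SE 0.16, 95% interval -0.53 to 0.19) turned to 0.11 with library size only. Without 1 library it ran from -0.31 (TSK 1 left out) to -0.07 (TSK 2 left out), and was -0.08 without WT 3. A stretch of 232 exonic bases of Jun is shared with the antisense gene Junos, which was at 1.37 to 3.13 deposited CPM, and whether counting used the strand is not given in the sources used here. Junb (chromosome 8, 84976910 to 84978718, minus strand), which can restrain JUN, was at 38.5, 31.3 and 47.1 CPM in WT and 38.7, 24.8 and 27.4 CPM in TSK (-0.36, SE 0.21, adjusted p = 0.373). The Junb value was -0.19 without WT 3, -0.24 without TSK 2 and -0.58 without TSK 1. Fos, Jun and Junb overlapped between the groups, and 0 of the 3 passed the test.

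Atf3 (chromosome 1, 191170296 to 191218039, minus strand), a stress-induced repressor of the ATF/CREB family, was at 9.63, 18.3 and 14.8 CPM in WT and 7.98, 4.25 and 12.2 CPM in TSK. WT 2 was highest and TSK 2 lowest, with TSK 3 within the WT range. The log2 fold change was -0.80 (SE 0.37, 95% interval -1.64 to 0.03, adjusted p = 0.268). It was -0.50 without TSK 2 and -1.22 without TSK 3.

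Nr4a1 (chromosome 15, 101254269 to 101274795, plus strand) was at 73.8, 225 and 187 CPM in WT 1, 2 and 3 and at 97.1, 85.3 and 65.5 CPM in TSK. WT 1 was within the TSK range, whereas WT 2 and WT 3 were far above it. Its mean was 162 ± 78.9 CPM in WT and 82.6 ± 15.99 CPM in TSK (log2 fold change -0.97, SE 0.36, 95% interval -1.80 to -0.15, adjusted p = 0.181). Leaving out WT 1 brought it past 0.05 (-1.30, adjusted p = 0.0177), whereas leaving out WT 2 gave -0.65 (adjusted p = 0.453). WT 2 and WT 3 were also the libraries with the greatest share of muscle genes, 24.8% and 23.5% of the counts against 14.7% to 17.0% in the other 4. Summed over the 16 genes of the muscle list, the TMM-scaled level was 166780 to 302300 CPM in WT and 130880 to 159120 CPM in TSK. Of these genes 13 had a negative log2 fold change, with 0 past 0.05 and none at 0 counts.

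The direction of the Nr4a1 and Fosb differences depended on how muscle content entered the fit, in 2 alternatives chosen after the data were seen. With the share of counts in the muscle list as a covariate, the log2 fold change was 0.42 for Nr4a1 (SE 0.15, adjusted p = 0.336) and 0.34 for Fosb (SE 1.07, adjusted p = 0.927), both reversed in sign. On that fit Egr2 was at 0.21 (SE 0.42, adjusted p = 0.884), Atf3 at -0.26 and Egr3 at 0.78 (SE 0.30, adjusted p = 0.37). The fit left 3 genes past 0.05 among all tested genes, and the signs of Fos, Jun and Egr1 turned as well. The share was higher in every WT library than in any TSK library, so that share and genotype cannot be fully told apart with 6 libraries. With the mean log2 level of the muscle list as a covariate, the log2 fold change was -0.54 for Nr4a1 (SE 0.20, adjusted p = 0.178), -1.56 for Fosb (adjusted p = 0.299), -0.61 for Atf3, 0.60 for Egr2 and 0.71 for Egr3 (adjusted p = 0.0868). With muscle, ribosomal RNA and mitochondrial genes removed before scaling, 0 of the 10 genes passed, as in the full set. That mean gives each gene the same weight. Like the share it was highest in WT 2 and WT 3, but it was lowest in WT 1, where the share was above that of every TSK library. The slow myosin Myh7 alone ran from 2.28 CPM in WT 1 to 659 CPM in WT 2 and 880 CPM in TSK 2. Egr2 ran against Nr4a1 in WT 2, where it was lowest, and WT 3, where it was next lowest.

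**Figure D3:**
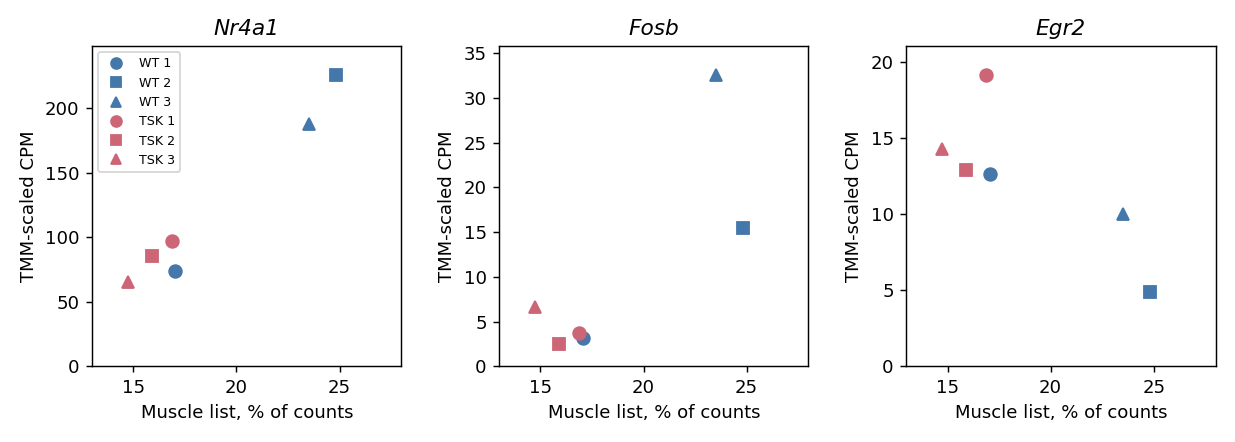
TMM-scaled CPM of Nr4a1, Fosb and Egr2 against the share of counts in the adult skeletal muscle list, with 1 point per library (blue WT, red TSK). WT 2 and WT 3, at 24.8% and 23.5%, hold the top values of Nr4a1 and Fosb and the lowest of Egr2, while WT 1 lies beside the TSK libraries.

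How far mice of the same genotype differed was measured as the SD of log2 CPM within genotypes, pooled over both groups. The median of the 10 genes was 0.513, against 0.258 over all tested genes, and 8 of the 10 lay above that all-gene median. Fosb had an SD of 1.30, at the 99.5th percentile of all tested genes. Nr4a1 (0.644), Atf3 (0.627) and Fos (0.553) were also above the 90th percentile, which was 0.551. Egr2 (0.542) and Egr1 (0.485) were at the 89.4th and 85.3rd percentiles. Junb (0.316), Egr3 (0.261), Ier2 (0.213) and Jun (0.2) were nearer to the bulk of genes, at the 62.1st, 50.8th, 39.1st and 35.7th percentiles. Counting error alone would give an SD of 0.0311 to 0.107 for these genes. These percentiles are a description and carry no test.

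**Figure D4:**
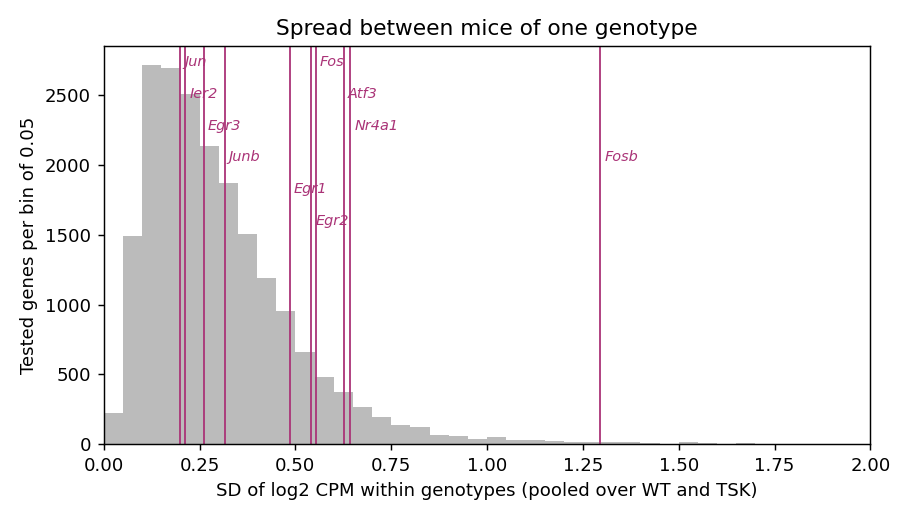
Histogram of the within-genotype SD of log2 CPM for all tested genes (bins of 0.05), with the 10 immediate early genes as lines. Jun, Ier2 and Egr3 stand in the body of the distribution, and Fosb, at 1.30, stands in its far tail.

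The libraries were then ordered by the early genes. WT 3 was the highest library for 5 of the 10 genes (Fos, Fosb, Jun, Junb and Egr1) and was above the mean of the 6 libraries for 8. WT 2 was highest for Atf3 and Nr4a1 and lowest for Egr2, Egr3 and Ier2. TSK 1 was highest for Egr2, Egr3 and Ier2. TSK 2 was the lowest library for 6 genes, Fos, Fosb, Jun, Junb, Egr1 and Atf3, and TSK 3 for Nr4a1. TSK 2 also had the lowest share of counts in ribosomal RNA genes, 2.68% against 4.76% to 7.82% in the other 5 libraries, and this share was higher in every WT library (6.10% to 7.82%) than in any TSK library (2.68% to 5.46%). TSK 2 also had the highest summed level of an adipocyte list, 2876 CPM against 258 to 725 CPM in the other 5. The part of either in the order of the libraries was not tested. The median deviation from the gene mean was 0.51 in WT 3 and -0.40 in TSK 2 on the log2 scale. In the other libraries it was -0.21 in WT 1, 0.11 in WT 2, 0.19 in TSK 1 and 0.10 in TSK 3. Hence no library was high or low for all 10 genes, and the median deviations of the groups overlapped.

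**Figure D5:**
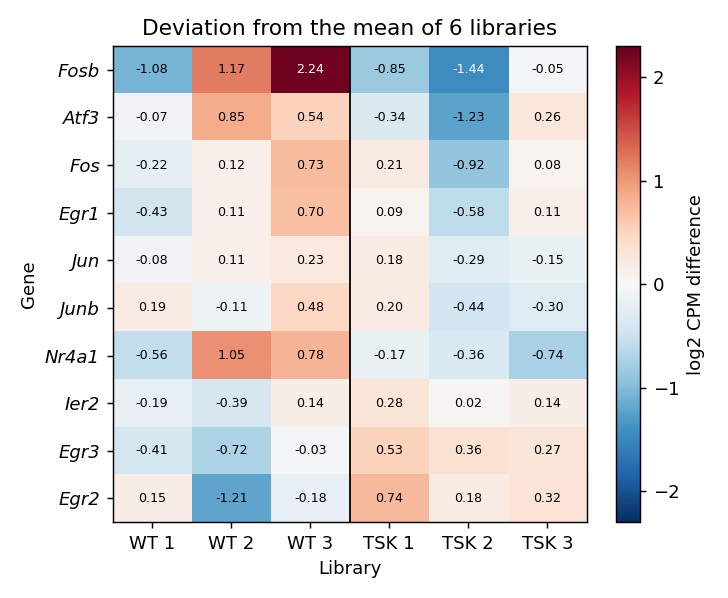
Deviation of each library from the mean of 6 libraries (log2 CPM, TMM-scaled) for each gene, red above and blue below the mean, with the groups split by a black line. WT 3 holds 5 of the highest values and TSK 2 holds 6 of the lowest, while Egr2 and Egr3 are above their means in the 3 TSK libraries.

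Over the 6 libraries, 29 of the 45 pairs among the 10 genes had a positive Pearson r of log2 CPM, with a mean of 0.277. The mean over all pairs of tested genes was 0.00161. Fos and Egr1 were the closest pair (r = 0.947), followed by Egr3 and Ier2 (0.915) and Fosb and Egr1 (0.889). Egr2 and Nr4a1 were the most opposed (-0.784). The 7 genes with a negative difference all correlated positively with each other (0.391 to 0.947), and so did Egr2, Egr3 and Ier2 (0.819 to 0.915), whereas 16 of the 21 pairs between these sets were negative. Since the sets were split by the sign of the genotype difference, part of this is set by the split. After genotype means were taken out, 40 of 45 pairs were positive, the mean r was 0.451 (0.00224 over all pairs of tested genes), and 5 of the 21 pairs were negative. All of these values rest on the same 6 libraries, and no test was made on them.

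The sequences before the starts of Fos, Junb, Nr4a1 and Egr2 are shown as examples from the AP-1, NR4A and EGR genes. RefSeq promoter windows (GRCm38.p6) were found for 7 of the 10 genes, all but Egr1, Egr3 and Ier2. The windows printed hold 250 bases before an annotated start, 5′ to 3′ on the strand of the gene, with no annotated exon in them. Capitals mark the CRE core (TGACG, or CGTCA as read on the other strand) and the CArG box.
Fos: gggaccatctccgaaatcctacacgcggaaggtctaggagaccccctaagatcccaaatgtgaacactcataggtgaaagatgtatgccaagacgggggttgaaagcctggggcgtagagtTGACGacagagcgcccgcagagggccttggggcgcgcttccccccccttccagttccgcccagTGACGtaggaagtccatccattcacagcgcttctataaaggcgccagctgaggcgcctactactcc
Junb: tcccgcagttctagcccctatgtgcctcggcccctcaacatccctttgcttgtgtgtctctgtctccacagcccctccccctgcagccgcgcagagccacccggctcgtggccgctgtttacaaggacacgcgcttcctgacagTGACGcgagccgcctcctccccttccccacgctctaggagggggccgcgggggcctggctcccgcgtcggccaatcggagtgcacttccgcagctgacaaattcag
Nr4a1: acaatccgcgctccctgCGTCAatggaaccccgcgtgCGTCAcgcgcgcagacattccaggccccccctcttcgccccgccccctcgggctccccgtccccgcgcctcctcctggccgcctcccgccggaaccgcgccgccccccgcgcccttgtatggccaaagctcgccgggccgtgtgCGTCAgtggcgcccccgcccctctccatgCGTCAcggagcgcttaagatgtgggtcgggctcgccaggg
Egr2: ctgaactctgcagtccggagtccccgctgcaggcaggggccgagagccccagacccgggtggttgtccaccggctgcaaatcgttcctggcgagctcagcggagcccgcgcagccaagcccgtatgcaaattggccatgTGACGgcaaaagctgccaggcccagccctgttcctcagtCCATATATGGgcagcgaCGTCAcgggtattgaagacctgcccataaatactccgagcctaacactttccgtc

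These windows are chr12:85473640-85473889 (plus strand) for Fos, chr8:84978749-84978998 (minus strand) for Junb, chr15:101266596-101266845 (plus strand) for Nr4a1 and chr10:67537619-67537868 (plus strand) for Egr2. Egr2 has 5 annotated starts, and the one shown was picked for its CArG box. The CRE core was in 8 of the 11 windows of the 7 genes (in at least 1 window of Atf3, Egr2, Fos, Fosb, Junb and Nr4a1), while 17.8% of all 32851 windows of this length held it on either strand. Of the Egr2 windows, 3 overlap and hold the same sites, and with overlapping windows of a gene counted once it was in 6 of 9. Nr4a1 held it 4 times, the nearest beginning 40 bases before the start. Of the 7 genes with windows, the CArG box was found in those of Egr2 alone, 72 bases before the start shown, against 1.47% of all windows. Sequence outside the windows was not searched, looser forms of the box were not counted, and Egr1, Egr3 and Ier2 had no window. A gene without a match here may therefore still have a CArG box. The full CRE, TGACGTCA, which contains the core on both strands, was in 0 of the 7 genes and in 1.55% of all windows. A match is a description of the letters and not a measured binding site.

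Genes most like the mean of the 10, as z-scores of log2 CPM over the 6 libraries, were Snora73b (r = 0.992), Hs6st1 (0.983), Ints2 (0.970), C1qtnf3 (0.969), Gm38357 (0.953), Zfp3 (0.952), Trim27 (0.9501) and Pip5k1a (0.949), out of 12007 genes with a mean of at least 5 CPM. C1qtnf3 had the widest values among them, 5.45, 8.49 and 13.3 CPM in WT and 10.3, 5.19 and 8.75 CPM in TSK. Hs6st1, which encodes a heparan sulfate sulfotransferase, ran only from 39.3 to 50.1 CPM. The likeness is one of pattern and not of size, it was ranked over the same 6 libraries, and it carries no test.

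The other genes of the response were read from 6 lists with 80 genes, of which 77 were tested. Past 0.05 were 5 of them, 3 with more and 2 with less transcript in TSK, which is 6.49% against 3.39% of all tested genes. Their median log2 fold change was 0.01. Leaving out WT 2, WT 3 or any TSK library gave 1 or 2 genes past 0.05, and leaving out WT 1 gave 10. With the muscle share as a covariate it was 0. Relatives of the 10 genes (FOS, JUN, MAF, EGR and NR4A families) had 0 higher and 1 lower of 11 tested, with a median of 0.16. The one that fell was Fosl1, which encodes the AP-1 protein FRA1. It was at 1.73, 2.14 and 5.96 CPM in WT and 0.570, 0.421 and 0.659 CPM in TSK (log2 fold change -2.56, SE 0.53, adjusted p = 0.0381), with WT 3 again the highest library. WT and TSK values were separate for 5 of the 11 relatives, 3 lower in TSK (Fosl1, Nr4a2 and Nr4a3) and 2 higher (Jund and Jdp2), against 10.6% and 14.1% of all tested genes. Apart from Fosl1, these did not pass the test. Nr4a3 was at 11.6, 30.1 and 24.9 CPM in WT and 7.41, 6.45 and 11.5 CPM in TSK (-1.39, SE 0.35, adjusted p = 0.0718), and Nr4a2 had a log2 fold change of -0.43 (adjusted p = 0.247). Nr4a3, like Nr4a1, was highest in WT 2 and WT 3. Jund, Fosl2 and Mafg were the most abundant relatives, with log2 fold changes of 0.42, 0.16 and -0.14 (adjusted p = 0.185, 0.63 and 0.579).

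Early inhibitors, which include the MAP kinase phosphatases, the mRNA decay factors of the Zfp36 family and the IER and BTG proteins, had 0 of 18 tested genes past 0.05 and a median of 0.10. Of all tested genes 3.39% passed. Zfp36l2, Sik1 and Btg1, the 3 most abundant, had log2 fold changes of -0.02, -0.17 and 0.25. Dusp1, a phosphatase induced by stress, was at 60.3, 82.9 and 81.8 CPM in WT and 88.4, 62.1 and 94.8 CPM in TSK, with overlapping groups. Socs3, the inhibitor of cytokine signaling downstream of STAT3, was named after its values were seen: it was at 34.6, 55.7 and 64.5 CPM in WT and 25.7, 19.5 and 32.1 CPM in TSK (-1.001, SE 0.25, adjusted p = 0.071). WT 2 and WT 3 were again highest. Of this list Socs3 was separate and lower in TSK, and Spry4 was separate and higher, from 3.90, 6.16 and 5.16 CPM in WT to 9.02, 6.69 and 6.64 CPM in TSK (0.56, adjusted p = 0.213), against 10.6% of all tested genes separate and lower and 14.1% separate and higher.

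Other early induced genes had 2 higher and 1 lower of 17 tested (2.71% and 0.681% of all tested genes), with a median of 0.04. Klf2, a factor of endothelial cells that responds to flow, rose from 25.8, 30.6 and 26.6 CPM in WT to 46.3, 49.6 and 56.8 CPM in TSK (log2 fold change 0.88, SE 0.13, adjusted p = 0.0148). Rhob, a small GTPase, rose from 54.6, 54.2 and 62.1 to 85.7, 108 and 84.8 CPM (0.70, SE 0.14, adjusted p = 0.0346). Gadd45a, a stress gene that halts the cell cycle, fell from 17.5, 11.02 and 20.6 to 7.72, 6.50 and 7.67 CPM (-1.17, SE 0.23, adjusted p = 0.0337). Of the 17 genes, 3 were separate and higher in TSK (Klf2, Klf4 and Rhob) and 1 was separate and lower (Gadd45a). The shares over all tested genes were 14.1% and 10.6%. A list of 8 endothelial genes summed to 168 to 224 CPM in WT and 248 to 414 CPM in TSK, lowest of the TSK libraries in TSK 3 where Klf2 was highest. Of these genes 8 of 8 were positive in log2 fold change and 2 passed 0.05, against 2.71% of all tested genes. The part of this list in the Klf2 result was not tested. Klf4 (0.60, adjusted p = 0.0561), Thbs1 (0.65, adjusted p = 0.338) and Klf6 (0.24, adjusted p = 0.417), the most abundant of this list, did not pass.

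Upstream kinases and factors had 1 higher and 0 lower of 13 tested (2.71% and 0.681% of all tested genes), with a median of -0.07. Elk3, an ETS partner of serum response factor, rose from 11.6, 10.9 and 11.8 CPM to 17.6, 19.3 and 17.3 CPM (log2 fold change 0.66, SE 0.12, adjusted p = 0.0291). Elk4 and Rps6ka3, both abundant here, had log2 fold changes of 0.17 and -0.20 (adjusted p = 0.491 and 0.485). Heat shock genes, the other common sign of stressed tissue, had 0 of 11 past 0.05, where 3.39% of all tested genes passed, and a median of -0.20. Hspa8, Hspb1 and Hspd1 led this list with log2 fold changes of -0.27, -0.22 and -0.15. Hspa1a, the inducible HSP70 gene, was at 36.5, 55.7 and 52.3 CPM in WT and 57.9, 49.0 and 59.1 CPM in TSK (0.20, adjusted p = 0.574). Genes of the ATF4 pathway, which can induce Atf3, had 0 of 7 past 0.05 and a median of 0.05, with Atf4, Ppp1r15a and Chac1 at -0.08, 0.01 and -0.92 (adjusted p = 0.812, 0.977 and 0.111).

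Cell type lists showed how the tissue of the libraries differed. Log2 fold changes had a median of -0.79 for adult skeletal muscle, 1.07 for fibroblast, 2.64 for adipocyte, 1.48 for hair follicle, 0.72 for endothelial, 0.66 for smooth muscle and pericyte, 0.97 for macrophage, 1.09 for mast cell and 0.52 for Schwann cell genes. Basal keratinocyte genes had a median of -0.40, differentiated keratinocyte genes 0.51, T and NK cell genes 0.34, red blood cell genes 0.58 and neutrophil genes -0.69, the last from 3 tested genes with Ly6g at a count that rounds to 0 in every library. Past 0.05 and higher in TSK were 4 of 12 fibroblast, 3 of 10 adipocyte, 4 of 7 hair follicle, 2 of 8 endothelial, 2 of 7 differentiated keratinocyte, 1 of 8 smooth muscle and 1 of 6 Schwann cell genes, against 2.71% of all tested genes. None of the 8 macrophage, 7 basal keratinocyte, 7 T and NK cell, 5 mast cell, 5 red blood cell, 3 neutrophil or 16 muscle genes passed, and 0 genes of any cell type list were lower past 0.05. The adipocyte sum was 285, 338 and 258 CPM in WT and 725, 2876 and 522 CPM in TSK, so that TSK 2 stood far above the others. Basal keratinocyte genes summed to 4994 to 7759 CPM in WT and 3558 to 5958 CPM in TSK, with overlapping groups. The summed level of smooth muscle and pericyte genes, 2034 to 2982 CPM in WT and 1510 to 1820 CPM in TSK, went against the sign of their median. Most of that sum was Des, which skeletal muscle also expresses, at 1712 to 2414 CPM in WT and 1073 to 1286 CPM in TSK. Which cells held the early transcripts was not measured in these libraries.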

How the data were processed

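Bulk RNA of dorsal skin from 3 WT and 3 TSK mice was sequenced by the authors as stranded, ribosome-depleted, single-end reads of 50 bases. According to the labels and methods, reads were aligned with STAR to mm10 and quantified in Partek Flow 11.0 with Ensembl genes. The deposited count table holds estimated counts (39.6% to 41.4% of values above 0.001 were whole within that margin), which were rounded here; the plan had assumed counts. The deposited CPM table holds counts per 1000000. The depth was 17561453 to 19219814 counts per library. Each column belonged to 1 labelled mouse. Chi-square between libraries of a genotype was at least 8.61 per degree of freedom, so none was another library of that genotype sequenced again. It cannot show whether different libraries came from the same mouse.

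Tests used edgeR 4.0.16 in R 4.3.3 (quasi-likelihood, TMM, filterByExpr, Benjamini-Hochberg over 19971 genes), with the SE taken as the fold change over the root of F, and DESeq2 1.42.0 and limma 3.58.1 as alternatives. Per-library log2 values used a prior count of 2. The procedures were tested on simulated data. P-values set the difference between genotypes against the spread between mice, with 3 mice per group. Exonic lengths came from GENCODE M21, whose gene ends matched 99.5% of deposited genes by name, and shared sequence was sought with BLAST 2.17.0. Coordinates are 1-based in mm10.

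The 10 genes and the lists were chosen with earlier results of these data known. Named were the 10 genes, genes of the 6 response lists past 0.05, the 3 most abundant of each of those lists, the 8 genes most like the mean of the 10, and Fbn1, Xist and Y-linked genes. Dusp1, Hspa1a, Socs3, Spry4, Jdp2, Nr4a2, Nr4a3, Pmp22, Myh7, Des and Junos were named after their values were seen. A gene that this rule names is not reported here.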

Additional observations from a re-analysis of the deposited data

How the results depend on the processing

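The count of genes past an adjusted p of 0.05 (678) was 1778 with library size only, 1544 with DESeq2, 1871 and 1860 with limma-trend on log2(deposited CPM + 1) and + 0.1, 1387 without a low-count filter, and 58 at 0.01 with a fold above 2.5. In the first 5 of these settings 1 of the 10 early genes was higher, Egr3, in place of 0, and without the filter 1 was also lower, Fosb. Response genes past 0.05 on the 6 lists (5) were 9, 11, 10, 10 and 10 in the same settings and 3 with limma-voom. Library size only moved the median of all genes from -0.03 to 0.25. On that scale and with limma-trend at both pseudocounts the sign turned for Jun (0.1105, 0.1028 and 0.1036) and Egr1 (0.00024, 0.02142 and 0.02243), and Egr1 turned without WT 3 (-0.5061 to 0.0528 over the 6 libraries left out in turn). Without 1 library at a time, 60 to 1260 genes passed, 0 early genes were higher and 0 to 2 lower, and 1 to 10 response genes passed. The 2 early genes were Fosb and Nr4a1, without WT 1, and the 60 genes were found without WT 3. With the muscle share as a covariate 3 genes passed (2455 at an unadjusted p below 0.05), with 0 early and 0 response genes, and the sign turned for Fos (0.09648), Fosb (0.3404), Jun (0.06475), Egr1 (0.3328) and Nr4a1 (0.4173). With the muscle list mean instead, 681 passed. Of 190 values of the 10 genes over 19 alternatives, 170 kept direction and call, 8 gained a call and 12 reversed. The cause of these shifts was not tested. The replicate numbers gave no sign of pairing (correlations of deviations 0.0112, 0.167 and -0.0938, with 2 of 6 libraries closest to their own number). With so few mice this cannot show that they were unpaired. With the replicate block 794 genes passed and 0 of the 10.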
